A study of Mus musculus with 8 samples.

Results

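6499c4 is a mouse pancreatic ductal adenocarcinoma cell line, one of 4 such lines profiled by bulk RNA sequencing of poly(A) RNA, and it contributed 2 of the 8 libraries analysed here. The libraries were chosen by their label: the unedited 6499c4 culture (WT) and the 6499c4 culture in which C1galt1c1 had been knocked out (KO). They were set against the 6 libraries of 6694c2, 2838c3 and 6419c5, each likewise represented by 1 WT and 1 KO library. C1galt1c1 encodes Cosmc, the chaperone that the core 1 O-glycan galactosyltransferase needs, so its loss leaves mucin-type glycans at the unextended Tn stage. The study was designed around that knockout, so the question addressed here, what distinguishes 6499c4 from the other lines whatever its genotype, uses the same libraries along their other axis.

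All cultures grew in high-glucose medium with serum, without stroma or immune cells. The labels give no mouse strain, age, oncogenic alleles, driver promoter or passage, and they do not say whether a WT culture and its KO partner were handled separately. Lines named in this way are generally clones grown out from tumours of genetically engineered mice, each clone from 1 tumour, and 6499c4 is known from other work as a line whose implanted tumours attract T cells. A clone carries the cell state and the chromosome content of the cell it came from. A difference between 6499c4 and the other lines is therefore a difference between clones, in which the tumour of origin and later divergence in culture cannot be told apart.

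Pancreatic ductal tumour cells are epithelial. They are held together by cadherin, desmosomes and claudins, the sealing proteins of tight junctions, and by a keratin network. Tumours of the classical subtype add genes of stomach and intestine, such as mucins, trefoil factors and gastric claudin, whereas basal-like tumours lean towards squamous keratins. Lineage transcription factors of the endoderm set where a cell lies between these states.

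The targeted gene followed the labels. C1galt1c1 stood at 54.2 TPM (a transcript abundance corrected for length and scaled to the same total in each library) in 6499c4 WT and at 18.98 TPM in 6499c4 KO. In the other lines it ranged from 37.0 to 40.4 TPM in WT and from 10.9 to 16.1 TPM in KO cultures. TPM keeps no record of depth, so the number of reads behind a value is unknown here, and low values are less precise than high ones. The share of TPM on identifiers without a gene name was 12.5% in 6694c2 KO and 9.69% in 6419c5 KO against 0.713 to 1.33% in the other libraries, which lowers every other gene in those 2 libraries. The 6499c4 libraries were not among them. The p-values given below rest on how far the KO minus WT difference varied between the lines, a spread that may be technical in part. No replicate cultures of the same line and genotype were available.

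The ductal label was borne out by most of its defining genes. Krt8 stood at 5719 and 8257 TPM in the 6499c4 WT and KO libraries, Krt18 at 4739 and 5840 TPM, and Cdh1, which encodes E-cadherin, at 655 and 605 TPM. Of 12 defining genes, 11 reached 1 TPM in 6499c4. Some were low: the adhesion gene Epcam stood at 12.03 and 9.15 TPM, the ductal transcription factor gene Sox9 at 3.79 and 6.68 TPM, and the claudin gene Cldn4 at 1.48 and 2.74 TPM. Each of these 3 was also under 50 TPM in all of the other libraries. Markers of other cell types were scarce. Of 22 immune cell markers, 20 stayed under 1 TPM in 6499c4, including Ptprc at 0.15 and 0.08 TPM, while Cd14, which tumour cells can make, held nearly all of the list's summed 362 and 343 TPM against 249 to 448 TPM in the other libraries. Of 20 acinar and islet markers, 11 were listed at 0 in both 6499c4 libraries, the insulin genes among them. Fibroblast markers summed to 133 and 137 TPM against 132 to 346 TPM elsewhere, with 11 of 14 under 1 TPM in 6499c4, and endothelial markers to 13.1 and 13.8 TPM against 12.5 to 26.5 TPM. Neuron and glia markers summed to 96.5 and 70.4 TPM against 50.3 to 90.3 TPM, and Stmn2, a microtubule regulator of neurons, was higher in 6499c4 at 23.3 and 7.20 TPM against at most 1.56 TPM.

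A marker gene of 6499c4 was one whose lower value in the 2 libraries lay above the highest of the other 6, or whose higher value lay below the lowest of the other 6, with at least 10 TPM in every library on the higher side. Genes on X and Y were left out. By this rule 693 genes were higher in 6499c4, 7.72% of the 8982 genes that had enough expression to qualify, and 720 were lower, 9.79% of 7357. These values chose the markers, so they are described below without a test. The same rule gave 530 higher and 983 lower genes for 6694c2, 703 and 290 for 2838c3, and 1288 and 585 for 6419c5, so that 6499c4 was neither the line with the most markers nor the one with the fewest. The split between directions depends on the scaling: quantile normalization gave 962 higher and 605 lower markers, and removal of unnamed identifiers and small RNA classes gave 614 and 939. Most gaps were narrow: the median distance between 6499c4 and the nearest other library was 0.17 for higher and 0.16 for lower markers on the log2(TPM + 1) scale. A gap of at least 1, close to a doubling, was found for 47 higher and 49 lower markers, and a gap of at least 3 for 5 and 11. The rule's expression limit fell between Sft2d1rt, whose lower 6499c4 value of 10.1 TPM qualified, and Tcp11l1, whose 9.80 TPM did not, and among lower genes between Pcf11, at least 10.1 TPM in the other lines, and Dusp19, at least 9.89 TPM.

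Cldn18 headed the higher markers. It encodes claudin-18, a tight junction protein of lung and stomach epithelium whose gastric form also marks many pancreatic cancers. It stood at 208 TPM in 6499c4 WT and 179 TPM in 6499c4 KO, and at 1.48, 0.99, 1.36, 0.72, 0.44 and 0.64 TPM in 6694c2 WT and KO, 2838c3 WT and KO and 6419c5 WT and KO. No other library came near: the lower 6499c4 value was 121 times the highest of the others. The gene is known to use separate starts for its lung and stomach forms, 3 starts are annotated, and a value per gene does not tell which was used.

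The 250 bases before the annotated canonical start are shown for Cldn18, for the helix-loop-helix factor gene Twist1, another higher marker, and for Ces2g, the lower marker with the third widest gap. They were read from GRCm39, the build that the files use, 5′ to 3′ on the strand of the gene, and overlap no annotated exon. Capitals mark matches to CANNTG, the E-box core that helix-loop-helix proteins bind, on either strand. The windows are chr9:99592117-99592366 on the minus strand for Cldn18, chr12:34007395-34007644 on the plus strand for Twist1 and chr8:105688096-105688345 on the plus strand for Ces2g.
Cldn18: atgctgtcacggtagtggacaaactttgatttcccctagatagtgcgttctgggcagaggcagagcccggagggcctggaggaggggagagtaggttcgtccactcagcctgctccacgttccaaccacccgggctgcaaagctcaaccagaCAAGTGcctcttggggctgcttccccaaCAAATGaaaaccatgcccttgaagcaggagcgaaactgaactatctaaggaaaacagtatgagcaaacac
Twist1: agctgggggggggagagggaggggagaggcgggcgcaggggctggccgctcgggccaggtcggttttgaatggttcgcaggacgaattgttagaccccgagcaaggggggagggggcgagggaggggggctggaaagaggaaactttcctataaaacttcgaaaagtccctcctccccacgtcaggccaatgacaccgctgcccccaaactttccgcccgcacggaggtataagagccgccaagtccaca
Ces2g: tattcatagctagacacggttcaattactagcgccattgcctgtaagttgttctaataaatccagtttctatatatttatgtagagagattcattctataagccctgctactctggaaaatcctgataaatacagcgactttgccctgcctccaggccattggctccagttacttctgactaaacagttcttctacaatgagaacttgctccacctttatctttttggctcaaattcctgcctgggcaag
The Cldn18 window held 2 matches, starting 98 and 70 bases before the start, and 7 CpG dinucleotides. The Twist1 window held no match and 16 CpG, and the Ces2g window no match and 3 CpG. Among the same windows of all 21770 protein-coding genes, 64.8% held CANNTG and the median number of CpG was 8. The share with CANNTG was 59% for the 656 protein-coding higher markers and 62% for the 716 lower markers, and both sets had a median of 13 CpG. Genes expressed at 10 TPM or more are not a sample of all genes, so these shares only describe the windows.

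Other claudins followed. Cldn3 stood at 153 and 233 TPM in 6499c4 WT and KO, at 20.1 and 30.0 TPM in 6419c5, and under 1 TPM in 6694c2 and 2838c3. Cldn6, a claudin of embryonic epithelium, stood at 470 and 654 TPM against 136 and 54.3 TPM in 2838c3, 65.5 and 90.5 TPM in 6419c5, and 5.99 and 4.29 TPM in 6694c2. Cldn7 stood at 35.9 and 17.7 TPM against at most 6.19 TPM in the other lines. In all 3 genes the lower 6499c4 value lay clear of every other library, although for Cldn3 and Cldn6 the next line expressed the gene well. Ehf, an ETS factor gene of mucosal epithelium, stood at 63.4 and 35.1 TPM against 7.69 and 3.12 TPM in 6419c5 and under 1 TPM in 6694c2 and 2838c3.

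Several higher markers were regulators or signalling genes that the other lines barely expressed. Gas1, which encodes a surface co-receptor for Hedgehog ligands, stood at 24.6 and 17.2 TPM in 6499c4 and at 0.06 to 0.31 TPM in the other 6 libraries. Mycl, a member of the Myc family of transcription factors, stood at 20.0 and 30.3 TPM and did not exceed 1.00 TPM elsewhere. Both genes were therefore close to a present or absent difference. Twist1, a factor best known for mesenchymal programmes in embryo and tumour, stood at 45.9 and 54.1 TPM, at 5.1 and 6.87 TPM in 6419c5, and under 1 TPM in the other 2 lines. Sox17, an endodermal and biliary factor gene, was split between line pairs: 127 and 116 TPM in 6499c4, 58.2 and 48.3 TPM in 6419c5, and under 1 TPM in 6694c2 and 2838c3. Clusters of high and low lines like that of Sox17 show that a marker by this rule need not be exclusive to 6499c4.

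Surface, transport and cytoskeletal genes made up much of the remainder. Atp6v1c2, which encodes a tissue-restricted subunit of the vacuolar proton pump, stood at 24.5 and 33.7 TPM against at most 0.60 TPM, and Atp6v0e2, another subunit gene of that pump, at 21.4 and 16 TPM against at most 2.55 TPM. Aqp5, a water channel gene of secretory epithelium, stood at 842 and 593 TPM in 6499c4, against 129 and 114 TPM in 6419c5, 50.8 and 59.0 TPM in 6694c2, and 6.59 and 12.3 TPM in 2838c3. All 4 lines thus expressed Aqp5 and their ranges were separate. Tmem158, a membrane protein gene, stood at 610 and 678 TPM against 11.2 to 90.2 TPM. Tns4, which encodes the focal adhesion protein tensin-4, stood at 360 and 379 TPM against 5.43 to 54.4 TPM. Krt13, a keratin of stratified mucosa, stood at 40.9 and 67.3 TPM against 1.12 to 6.05 TPM. Sting1, the adaptor for cytosolic DNA sensing, stood at 139 and 106 TPM against 25.2 and 22.2 TPM in 6419c5, 14.4 and 5.61 TPM in 6694c2, and under 1 TPM in 2838c3. Unc93b1, needed for trafficking of nucleic acid-sensing Toll-like receptors, stood at 26.1 and 16.7 TPM against at most 3.84 TPM.

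The remaining higher markers with the widest gaps were Tmem150c, Tmem132c, Nt5c1a, Cyp4b1, Ak4, Slc2a6, Prap1, Hpcal4, Ramp3 and Lrrc66. Cyp4b1, a cytochrome P450 gene, had the highest level of these in 6499c4, at 111 and 68.8 TPM against 4.69 to 11.5 TPM. Ramp3, which encodes a partner of calcitonin-type receptors, stood at 46.9 and 44.7 TPM against 1.28 to 11.7 TPM. The 10 most abundant higher markers were of another kind, with small gaps: Clu, Spp1 and Krt19, the ribosomal and translation genes Rplp1, Rplp0, Eef2, Rps12, Rps15, Rps26 and Rpl23a. Clu, which encodes the secreted chaperone clusterin, stood at 17421 and 16177 TPM in 6499c4 against 2111 to 10933 TPM. Spp1, which encodes osteopontin, stood at 9737 and 12689 TPM against 1102 to 8443 TPM, so the ranges lay next to each other. Ribosomal proteins have many processed copies in the genome, so reads of those genes can be shared among them. Ctnnb1, which encodes the junction and Wnt effector beta-catenin, was also a higher marker, at 1905 and 1944 TPM against 469 to 878 TPM.

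**Figure D1:**
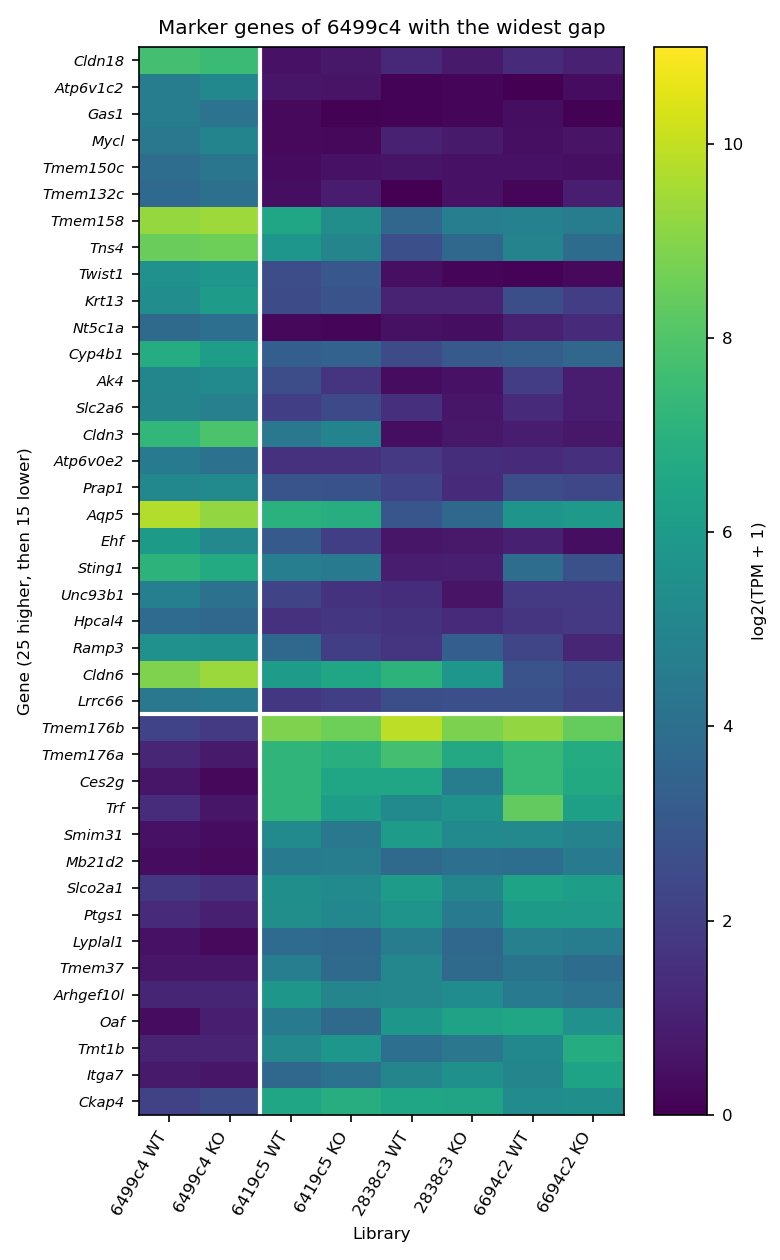
Heat map of the 25 higher and 15 lower marker genes with the widest gap between 6499c4 and the other libraries, on the log2(TPM + 1) scale, with 1 column per library and 1 row per gene. The 2 columns of 6499c4 on the left are bright for the upper block and dark for the lower block, and the 6499c4 WT and KO columns resemble each other in every row.

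The lower markers were led by an adjacent gene pair. Tmem176b, which encodes a channel-like membrane protein, stood at 3.57 and 2.65 TPM in 6499c4 WT and KO, and at 592 and 334 TPM in 6694c2, 963 and 456 TPM in 2838c3, and 464 and 385 TPM in 6419c5. Its paralogue Tmem176a stood at 1.27 and 0.75 TPM against 97.3 to 206 TPM. The pair lies on chromosome 6, Tmem176b at 48809099-48819233 on the minus strand and Tmem176a at 48817813-48824005 on the plus strand. The 2 annotations overlap at their starts, and the sources used here do not say whether counting used strand, so a read in the overlap cannot be assigned with certainty.

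Ces2g, which encodes a carboxylesterase of intestine and liver, stood at 0.60 and 0.19 TPM against 24.3 to 165 TPM. Trf, which encodes the iron carrier transferrin, stood at 1.65 and 0.60 TPM against 37.7 to 330 TPM, and Cp, which encodes the copper oxidase ceruloplasmin, at 2.48 and 1.85 TPM against 22.6 to 175 TPM. In each of these 3 genes all 6 other libraries expressed the gene and 6499c4 nearly did not. Slco2a1, which encodes a prostaglandin transporter, stood at 2.42 and 1.88 TPM against 32.1 to 82.1 TPM. Ptgs1, which encodes cyclooxygenase-1, the constitutive enzyme of prostaglandin synthesis, stood at 1.47 and 0.97 TPM against 21.3 to 61.9 TPM. Itga7, a laminin-binding integrin chain, stood at 0.73 and 0.58 TPM against 11.8 to 82.2 TPM. Its neighbour Tmt1b, whose annotated end overlaps that of Itga7 on the opposite strand, stood at 1.16 and 1.08 TPM against 15.1 to 110 TPM. Ckap4, a surface and endoplasmic reticulum protein gene, stood at 3.54 and 4.86 TPM against 38.8 to 114 TPM. The other lower markers with the widest gaps were Smim31, Mb21d2, Lyplal1, Tmem37, Arhgef10l and Oaf, each at 1.18 TPM or less in 6499c4 and at 11.96 TPM or more in every other library.

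Across all genes, 6499c4 was compared with the mean of the other 3 lines by limma on log2(TPM + 1), with line and genotype as terms and Benjamini-Hochberg adjustment at 0.05. Differences below are 6499c4 minus the mean of the other lines on that scale. Of 14268 genes tested, 1055 (7.39%) were called, 512 (3.59%) higher and 543 (3.81%) lower, and the median difference of all genes was -0.04. The residual spread comes from how far the KO minus WT difference varied between lines. The calls lean on having both 6499c4 libraries: without 6499c4 WT 48 genes were called higher and 38 lower, and without 6499c4 KO 62 and 55. Leaving out a 6419c5 library gave 310 and 284 calls without the WT library and 286 and 270 without the KO library, while leaving out a 2838c3 library raised them, to 653 and 837 without WT and 824 and 850 without KO. A call against a mean can also come from only some of the other lines. Such lines are named below for some genes but not for all. The section on processing lists the named genes whose difference changed sign against a single line. The gene lists used next were written with earlier results of these data known, so their counts are descriptions. They are to be read beside the 3.59% higher and 3.81% lower among all genes.

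**Figure D2:**
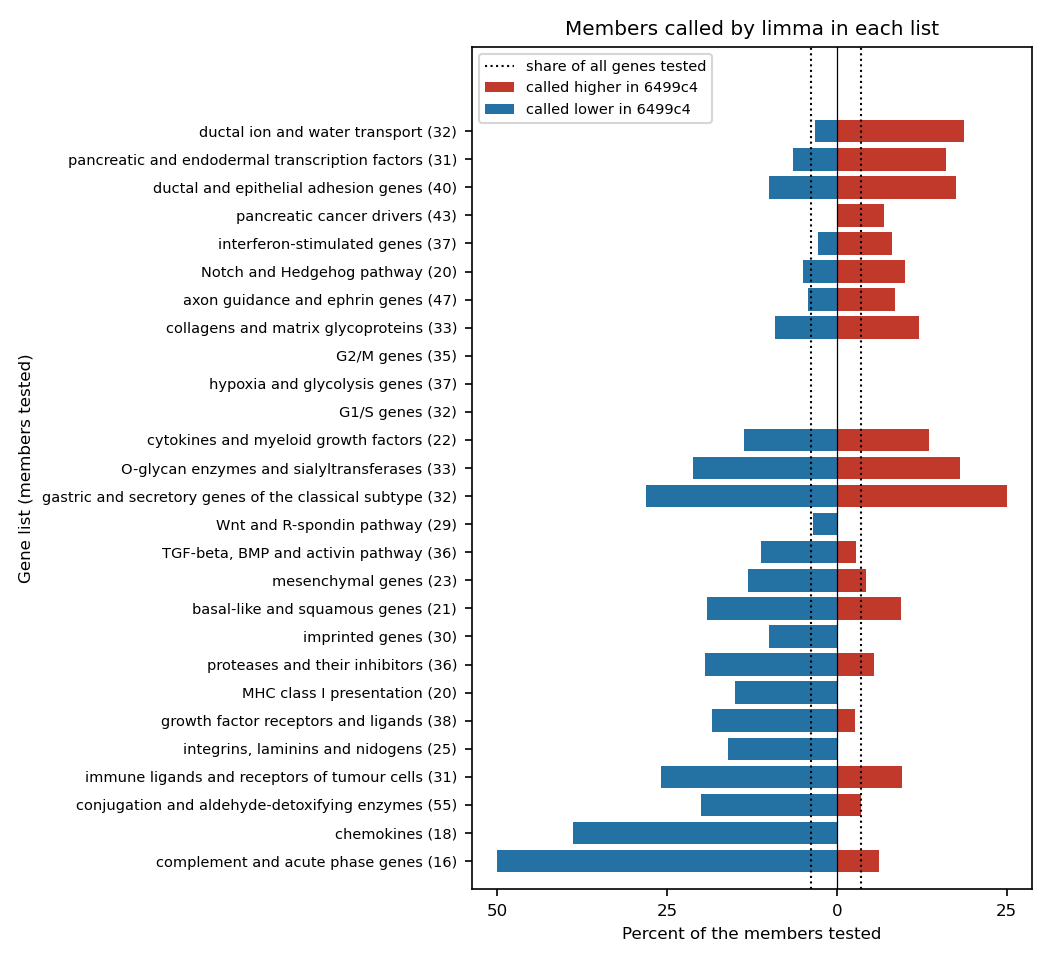
Share of the tested members of each gene list called higher (to the right) or lower (to the left) in 6499c4 by limma, with the number tested in brackets and dotted lines at the shares among all genes, 3.59% higher and 3.81% lower. Complement and chemokine lists extend furthest to the left, and the lists are ordered by the higher minus the lower share, with ion and water transport at the top.

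Ductal and epithelial adhesion genes were split. Of 40 tested, 7 were higher and 4 lower, with a median difference of 0.03. The higher genes were Cldn3, Cldn6, Cldn7, Ehf, Krt7, Prss8 and Spint1. Krt7, the keratin used to identify pancreatic ductal cells in pathology, stood at 1256 and 1397 TPM in 6499c4 against 739 and 542 TPM in 6419c5, 374 and 425 TPM in 2838c3, and 35.4 and 21.7 TPM in 6694c2. Krt19 was a marker too, at 5926 and 8038 TPM against 2528 to 5023 TPM. Prss8, an epithelial surface protease gene, differed by 1.72 (SE 0.24, limma adjusted p = 0.010), and Spint1, its inhibitor, by 1.77 (SE 0.32, limma adjusted p = 0.024), although 6419c5 WT exceeded both 6499c4 libraries for Spint1. The 4 lower genes were Cdh3, Krt20, Mal2 and Dsp. Dsp, which encodes the desmosomal anchor desmoplakin, stood at 63.7 and 55.6 TPM against 75.7 to 269 TPM. Cdh3, which encodes P-cadherin, fell by 2.24 (SE 0.21, limma adjusted p = 0.0020), mainly against 6419c5 and 2838c3, since 6694c2 stood at 2.08 and 1.29 TPM next to 2.55 and 0.65 TPM in 6499c4.

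**Figure D3:**
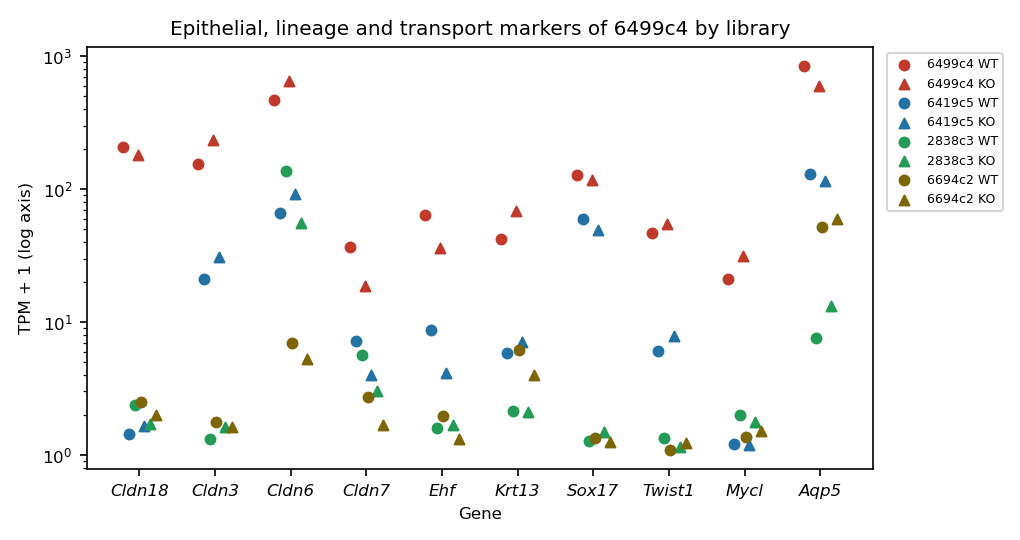
TPM + 1 on a log axis for 10 higher marker genes of epithelial identity, lineage and transport, with 1 point per library (circles WT, triangles KO, colours for lines). In all 10 genes both 6499c4 points lie above the other 6, and the genes for which 6419c5 is the next line include Cldn3, Cldn7, Ehf, Sox17, Twist1 and Aqp5.

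Endodermal and pancreatic transcription factors showed 5 higher and 2 lower members of 31 tested, with a median difference of 0.23. Sox17 was the most abundant of the higher markers among them after Klf5. Cdx2, the intestinal master regulator gene, was higher by 2.37 (SE 0.34, limma adjusted p = 0.010), at 127 and 114 TPM in 6499c4. It was not a marker, because 6419c5 stood higher, at 245 and 163 TPM. Nr0b2, a nuclear receptor gene of bile acid metabolism, followed the same order, at 44.2 and 32.1 TPM in 6499c4 and 72.0 and 53.5 TPM in 6419c5. Sox21 and Mnx1 were also called higher but stayed low, at 5.84 and 6.08 TPM and at 1.83 and 3.34 TPM, against at most 0.62 and 0.07 TPM elsewhere. The 2 lower genes were Creb3l1 and Ets2, the second a marker at 54.5 and 43.2 TPM against 84.0 to 147 TPM. Foxa2, a pioneer factor gene of endoderm, lay just below the other lines at 108 and 106 TPM against 108 to 171 TPM. Of 8 Hox genes tested, none was called higher and 2 lower, Hoxa10 and Hoxa11 (at an unadjusted p under 0.05, 1 higher and 3 lower). Both calls reflect 6419c5: Hoxa10 stood at 35.1 and 26.4 TPM there and at 0.61 TPM or less in every library of the other 3 lines.

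Gastric and secretory genes of the classical subtype moved both ways, with 8 of 32 tested called higher, 9 lower, and a median difference of -0.07. Higher genes besides Cldn18 included Dmbt1, a mucosal scavenger protein gene, at 1272 and 580 TPM against 321 and 200 TPM in 6419c5 and at most 19.2 TPM in the other lines. Anxa13, an intestinal annexin gene, stood at 2905 and 2883 TPM, above 2556 and 2196 TPM in 6419c5 and 102 to 590 TPM elsewhere. Lgals4, which encodes the gut lectin galectin-4, stood at 1910 and 1846 TPM against 1395 and 1369 TPM in 6419c5 and 90.9 to 932 TPM elsewhere. Gcnt3, a mucin-type core 2 and core 4 glycan enzyme gene, and Slc44a4, a transporter gene, were markers as well, Gcnt3 at 173 and 115 TPM against 41.0 to 72.4 TPM. Muc1 was called higher without separation, at 791 and 563 TPM against 708 and 620 TPM in 2838c3.

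The lower genes of this list were Tff1, Tff2, Tff3, Gkn1, Gkn2, Psca, Tm4sf5, Muc5b and Tspan1, the first 5 of which encode trefoil factors and gastrokines, secreted peptides of gastric mucosa. Tm4sf5 was not lower than in 6694c2 (difference 0.19), and Tspan1 not lower than in 2838c3 (difference 0.0039). The Tff1, Tff3 and Muc5b calls were lost with line 6694c2 left out. Those of Gkn1, Tm4sf5 and Tspan1 were lost with line 6419c5 left out. Tff2, a trefoil factor gene of gastric mucous neck cells, stood at 3.39 and 1.32 TPM in 6499c4, at 346 and 228 TPM in 6694c2, 149 and 63.6 TPM in 2838c3, and 5.47 and 4.71 TPM in 6419c5. Its difference was -4.11 (SE 0.23, limma adjusted p = 0.00050). 6499c4 and 6419c5 were thus the low pair for this gene. Tff1 showed the same order, 90.0 and 28.7 TPM in 6499c4 next to 74.4 and 127 TPM in 6419c5, against 9003 and 15491 TPM in 6694c2. Gkn1 and Gkn2, the gastrokine genes, were listed at 0 in both 6499c4 libraries, while Gkn2 reached 46.3 and 51.4 TPM in 6419c5. Psca, which encodes a prostate and stomach surface antigen, was the only marker among the lower genes of the list, at 1.93 and 3.08 TPM against 10.8 to 56.6 TPM. 6499c4 therefore combined the highest Cldn18 and Dmbt1 of the 8 libraries with low trefoil and gastrokine levels. The low Tff1 and Tff2 levels were shared with 6419c5.

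Basal-like and squamous genes gave 2 higher and 4 lower calls of 21, with a median of -0.10. The higher pair, both markers, was Krt13 and Ivl, the gene of the cornified envelope protein involucrin, which stood at 76.8 and 56.9 TPM against 54.8 and 31.6 TPM in 6419c5 and 2.23 to 10.9 TPM elsewhere. The lower genes were Tfap2a, Fgfbp1, Lamb3 and Bnc1. Lamb3, a laminin-332 chain gene, stood at 33.8 and 29.1 TPM against 53.5 to 117 TPM. Bnc1 was listed at 0 in 6499c4 and exceeded 1 TPM only in 6419c5.

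Among mesenchymal genes 1 of 23 was called higher and 3 lower, and the median difference was -0.49. The higher gene was Twist1. Sparc, which encodes a secreted collagen-binding glycoprotein, was a lower marker at 7.46 and 18.4 TPM in 6499c4 against 70.9 to 327 TPM. The other lower genes were Nt5e and Mylk. Twist1 was thus high in the library pair in which Vim stood at 1035 and 1289 TPM, against 1279 to 2296 TPM in the other lines, and Zeb1 at 11.3 and 9.56 TPM, against 9.82 to 18.2 TPM. Neither Vim (difference -0.49, SE 0.24, limma adjusted p = 0.25) nor Zeb1 (difference -0.30, SE 0.20, limma adjusted p = 0.40) passed the test.

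Among matrix-related genes, calls leaned lower for the integrin and protease lists but not for collagens and matrix glycoproteins, whose median difference was -0.34. Integrins, laminins and nidogens gave 0 higher and 4 lower calls of 25 by limma (at an unadjusted p under 0.05, 1 and 11), with a median of -0.42. The 4 lower were Itga7, Lamb3, Itga1 and Hspg2. Itga1, a collagen-binding integrin chain gene, stood at 12.3 and 19.8 TPM against 21.4 to 53.0 TPM. Itga3, the laminin-332 receptor chain gene, went the other way as a marker, at 663 and 800 TPM against 233 to 515 TPM. Of 33 collagens and matrix glycoproteins, 4 were higher (Col18a1, Efemp1, Col8a1 and Vcan) and 3 lower (Sparc, Tnxb and Col6a2). Col18a1, the basement membrane collagen gene that yields endostatin, stood at 319 and 360 TPM against 112 to 231 TPM, and Efemp1, a fibulin gene, at 254 and 193 TPM against 78.4 to 168 TPM. Of 36 proteases and inhibitors, 2 were higher and 7 lower. The higher pair was Serpinb1a and Mmp15, and Serpinb1a was not higher than in 6419c5 (difference -0.16). Mmp15, a membrane-anchored metalloprotease gene, was a marker at 69.7 and 65.0 TPM against 15.8 to 41.9 TPM. Mmp3, which encodes stromelysin-1, was listed at 0 in both 6499c4 libraries and stood at 1.72 to 5.83 TPM elsewhere, and Timp3, a metalloprotease inhibitor gene, fell by 3.05 (SE 0.33, limma adjusted p = 0.0039).

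Of 18 chemokine genes tested by limma none was called higher and 7 (38.9%) were called lower, against 3.81% of all genes, and the median difference was -1.27 (at an unadjusted p under 0.05, 1 higher and 10 lower). Without 6499c4 WT the lower calls were 2, without 6499c4 KO 1, and without 6419c5 KO 4. Cxcl1, a neutrophil attractant gene, stood at 0.13 TPM in 6499c4 WT and was listed at 0 in 6499c4 KO. It stood at 14.4 and 18.97 TPM in 6694c2 and 18.0 and 26.2 TPM in 6419c5, but 2838c3 was as low as 6499c4, at 0.26 and 0.04 TPM. Ccl2, a monocyte attractant gene, stood at 0.14 and 0.19 TPM in 6499c4, 1.47 and 1.09 TPM in 6694c2, 34.6 and 18.7 TPM in 2838c3, and 6.43 and 8.19 TPM in 6419c5. For Ccl2 the 6499c4 pair was the lowest of all 4 lines, below the expression limit of the marker rule. Cxcl17, a mucosal chemokine gene, was a lower marker at 3.12 and 2.03 TPM against 14.7 to 29.1 TPM. Ccl20, which attracts cells with the receptor Ccr6, stood at 6.8 and 3.96 TPM against 21.5 to 118 TPM, and Cxcl5, another neutrophil attractant gene, at 62.7 and 52.3 TPM against 81.0 to 505 TPM. Both are markers, with a wide spread in the other lines, and neither is among the 7 called. The chemokines Ccl17, Cxcl15, Ccl7 and Ppbp were also called lower, all from levels under 1 TPM in 6499c4. Cxcl15 passed the expression filter only through 6419c5. The Ccl7 call was lost with line 2838c3 left out, and the Ppbp call with either 2838c3 or 6419c5 left out.

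Complement and acute phase genes gave 1 higher and 8 lower calls of 16 tested, with a median of -1.53. The lower calls were 2 without either 6499c4 library. C3, the central complement component gene, stood at 1.20 and 0.92 TPM in 6499c4, 6.28 and 4.61 TPM in 6694c2, 84.6 and 24.03 TPM in 2838c3, and 41.0 and 71.1 TPM in 6419c5. C1s1 and C1ra, whose products form the protease of the classical pathway, stood at 0.10 and 0.32 TPM and at 1.41 and 1.22 TPM, against 2.29 to 33.0 TPM and 8.33 to 29.8 TPM. Cfb, the alternative pathway protease gene, was a marker at 14.4 and 8.13 TPM against 15.9 to 53.0 TPM. Cd55, which encodes the surface protein that protects cells from complement, was a marker as well, at 5.25 and 4.62 TPM against 10.2 to 41.5 TPM. Clu, a secreted regulator of complement on the same list, stood the other way as a higher marker that was not called, and with it the list summed to 17500 and 16200 TPM in 6499c4 against 2240 to 11100 TPM. Ambp, Hpx and C2 were the other lower calls, and for C2 2838c3 was as low as 6499c4.

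Of 22 cytokine and myeloid growth factor genes 3 were higher and 3 lower. Il18 was higher by 2.84 (SE 0.18, limma adjusted p = 0.00074), at 37.3 and 20.1 TPM against 20.4 and 13.8 TPM in 6419c5 and at most 1.33 TPM elsewhere. Il1rn, the interleukin-1 receptor antagonist gene, was shared with 6419c5, at 155 and 179 TPM next to 169 and 178 TPM. The third, Flt3l, stayed at 2.84 and 3.64 TPM. The lower genes were Il15 and the cyclooxygenase genes Ptgs1 and Ptgs2. Ptgs2, the inducible form, stood at 9.16 and 15.3 TPM against 20.2 to 90.1 TPM.

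Immune ligands and receptors gave 3 higher and 8 lower calls of 31, with a median of -0.35. Raet1e and Ulbp1, which encode ligands of the activating receptor NKG2D of natural killer and T cells, were both lower: Raet1e stood at 3.78 and 6.29 TPM against 18.5 to 35.0 TPM, and Ulbp1 at 0 and 0.12 TPM against 2.72 to 26.4 TPM. Cd47, the anti-phagocytic surface signal gene, was a marker at 55.5 and 46.9 TPM against 77.4 to 107 TPM, as was Nt5e, the adenosine-forming ectoenzyme gene, at 34.1 and 31.9 TPM against 40.4 to 120 TPM. Activating and inhibitory ligands thus both occurred among the lower genes. Ifnar2, Nectin1, Vcam1 and Raet1d completed the 8, the last because of 6419c5 alone. The 3 higher calls, Vtcn1, Arg1 and Ido1, stayed at 12.02 TPM or less. MHC class I presentation gave 0 higher and 3 lower calls of 20 by limma (at an unadjusted p under 0.05, 0 and 7), H2-Q4, Tap2 and H2-M3, and 2838c3 was as low as 6499c4 for Tap2 and lower for H2-M3. Class I genes and the Raet1 family have near-identical copies, so their reads may be shared. Of 37 interferon-stimulated genes 10.8% were called, against 7.39% of all genes: 3 higher, Sting1, Lgals3bp and Dhx58, and 1 lower, Ifit3. Their median difference was 0.08, and Dhx58 was not higher than in 6419c5 (difference -0.0282). Lgals3bp, a secreted glycoprotein gene, was a marker at 970 and 954 TPM against 763 and 553 TPM in 6419c5 and 85.4 to 339 TPM elsewhere.

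Of 36 TGF-beta, BMP and activin genes, 1 was higher and 4 lower, with a median of -0.58. Bmp2 was at 0.09 TPM in both 6499c4 libraries against 1.47 to 62.1 TPM, and Bmp4 was a lower marker at 28.0 and 21.9 TPM against 34.4 to 103 TPM, while Bmp8b was a higher marker at 18.1 and 14.3 TPM against 11 and 8.19 TPM in 2838c3 and under 1 TPM in the other lines. The annotation of Bmp8b overlaps that of Ppie. Grem1 and Fstl1 were called lower because of 6419c5. Of 20 Notch and Hedgehog genes, Gas1 and Ihh were higher and Jag1 lower. Ihh, which encodes a Hedgehog ligand of gut epithelium, stood at 48.3 and 25.3 TPM next to 89.1 and 27.9 TPM in 6419c5, so that ligand and co-receptor were expressed together only in 6499c4 among these libraries at more than 10 TPM. Jag1, a Notch ligand gene, stood at 34.2 and 34.8 TPM against 41.7 to 98.4 TPM. Of 29 Wnt and R-spondin genes tested by limma none was higher and only Ror2 was lower (at an unadjusted p under 0.05, 2 higher and 7 lower). The called share was 3.45%, against 7.39% of all genes. Ctnnb1 was not on that list.

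Of 38 growth factor receptors and ligands, 1 was higher and 7 lower, with a median of -0.25. Igfbp4, which encodes an insulin-like growth factor binding protein, stood at 170 and 284 TPM against 693 to 2496 TPM, and Igfbp7 at 207 and 327 TPM against 346 to 2375 TPM. Pdgfc, a platelet-derived growth factor gene, stood at 14.1 and 13.2 TPM against 33.3 to 65.6 TPM. Fgf2, Igfbp5, Igfbp6 and Fgfr3 were the other lower calls, from low levels, and for Igfbp5 and Fgfr3 6419c5 was as low as 6499c4. The higher gene was Nrg4, at 7.34 and 6.74 TPM.

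All 43 genes of the pancreatic cancer driver list could be tested. By limma 6.98% were called, near the 7.39% of all genes, with 3 higher and none lower (at an unadjusted p under 0.05, 7 and 5). Besides Mycl these were Cdkn2a and Cdkn2b, the neighbouring inhibitor genes that many pancreatic tumours delete. Cdkn2a stood at 1237 and 1507 TPM in 6499c4, 1212 and 1088 TPM in 6419c5, 520 and 536 TPM in 2838c3, and 5.76 and 5.21 TPM in 6694c2. The call therefore rests largely on the near absence of Cdkn2a in 6694c2. Cdkn2b stood at 268 and 336 TPM in 6499c4, below 350 and 352 TPM in 6419c5, and its call was lost with line 6694c2 left out. Trp53 (126 and 121 TPM against 85.3 to 150 TPM) lay within the range of the other lines. Myc was a higher marker at 333 and 293 TPM against 184 to 277 TPM.

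Ductal ion and water transport gave 6 higher calls and 1 lower of 32, with a median of 0.18. Kcnk1, a potassium leak channel gene, stood at 50.8 and 26.0 TPM against 1.02 to 7.72 TPM, and Slc9a2, a sodium-proton exchanger gene, at 24.1 and 21.4 TPM against 11.4 and 11.3 TPM in 6694c2, 7.73 and 6.97 TPM in 6419c5 and under 1 TPM in 2838c3. Slc26a9, a chloride channel gene of stomach and airway, and Kcne3, a potassium channel subunit gene, were higher at 6.44 and 4.25 TPM and at 9.79 and 3.48 TPM. Car8 was shared with 6419c5, at 139 and 81.7 TPM next to 194 and 163 TPM. The lower gene was Fxyd5, a sodium pump regulator gene, at 1.21 and 0.58 TPM against 11.3 to 47.6 TPM.

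Conjugation and aldehyde-detoxifying enzymes gave 2 higher and 11 lower calls of 55, with a median of -0.61. Nqo1, a quinone reductase gene and a target of the oxidative stress factor Nrf2, stood at 1.27 and 0.71 TPM in 6499c4, 120 and 282 TPM in 6694c2, 148 and 24.2 TPM in 2838c3, and 7.10 and 18.9 TPM in 6419c5. Its difference was -4.73 (SE 0.72, limma adjusted p = 0.013), and 6499c4 lay below every other library. Mgst1 and Gstm1, glutathione transferase genes, were markers at 28.5 and 9.77 TPM against 54.4 to 222 TPM and at 293 and 155 TPM against 362 to 1457 TPM. Gstm1 has close paralogues, so its reads may be shared with them. Cbr1, a carbonyl reductase gene, stood at 35.1 and 26.0 TPM against 43.5 to 262 TPM. The higher genes were Ugt1a7c, shared with 6694c2 and 6419c5, and Gstt2, a marker at 18.3 and 21.7 TPM against at most 8.37 TPM.

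Because the study concerns O-glycans, their enzymes were read as well: of 33 tested 6 were higher and 7 lower. Galnt4, which starts O-glycan chains, stood at 186 and 105 TPM against 6.73 to 32.1 TPM. Its annotation lies within that of Poc1b, itself a higher marker at 36.8 and 30.5 TPM against 6.78 to 12.9 TPM, so reads may be split between them. St3gal6, a sialyltransferase gene, stood at 162 and 106 TPM against 7.06 to 78.3 TPM, and Fut2, which encodes a fucosyltransferase that makes H antigen, at 59.8 and 23.8 TPM against 0.65 to 16.4 TPM. Lower markers were the sialyltransferase genes St3gal1, at 18.6 and 22.6 TPM against 35.1 to 66.5 TPM, St6gal1, at 54.1 and 61.5 TPM against 102 to 173 TPM, and St3gal5, and the core 2 enzyme gene Gcnt1, at 24.01 and 13.9 TPM against 37.3 to 66.4 TPM. For core 2 branching the enzyme genes thus stood in opposite order, Gcnt3 high and Gcnt1 low. The other lower calls, B4galnt3, B4galt4 and Galnt18, were under 1 TPM in 6499c4, and B4galt4 and Galnt18 were high only in 6419c5.

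Axon guidance and ephrin genes gave 4 higher (Sema4f, Sema5a, Slit1 and Ephb2) and 2 lower calls (Sema3f and Robo1) of 47, none of them a marker. Sema4f was not higher than in 6419c5 (difference -0.25), and Robo1 not lower than in 6694c2 (difference 0.45). Imprinted genes gave 0 higher and 3 lower calls of 30 by limma (at an unadjusted p under 0.05, 3 and 6). The called shares of these lists were 12.8% and 10%, against 7.39% of all genes. The lower imprinted genes were Dio3, Peg3 and Cd81, the last a marker at 133 and 110 TPM against 166 to 373 TPM. Peg3 was level with 2838c3 (difference 0.00529). Proliferation and hypoxia lists did not separate 6499c4. By limma, none of 35 G2/M genes, 32 G1/S genes and 37 hypoxia and glycolysis genes was called in either direction. At an unadjusted p under 0.05, G2/M genes gave 0, G1/S genes 1 higher and 0 lower, and hypoxia and glycolysis genes 2 higher and 1 lower. The summed level of the G2/M genes was 1180 and 1050 TPM in 6499c4, inside the range of 568 to 3660 TPM of the other libraries.

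The pattern of 6499c4 was present in both of its libraries, as the marker rule requires. As a further description, genes were chosen in the 4 WT libraries alone and read in the 4 KO libraries. The shares of all genes given for comparison include the chosen genes. Of 1464 genes highest in 6499c4 WT, 939 (64.1%) were highest in 6499c4 KO as well, compared with 22.5% of all 8982 genes with enough expression. Of the 91 that led by 1 or more on the log2(TPM + 1) scale, 88 (96.7%) did so. For genes lowest in 6499c4 WT the numbers were 1092 of 1936 (56.4%), compared with 26.4% of all 7357, and 109 of 124 (87.9%) for a distance of 1 or more. WT and KO libraries of a line share their clone, so this is not a replication in another clone.

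The knockout itself changed few markers by much. Between 6499c4 KO and 6499c4 WT, 447 of 14268 genes (3.13%) differed at least 2-fold on the TPM + 1 scale, with 1 library on each side and hence no replicate check. Among the markers this held for 6 of 693 higher (0.866%) and 9 of 720 lower (1.25%), a share that the rule itself keeps low, because both libraries have to lie on the same side of the other 6. The exceptions included Dmbt1, from 1272 to 580 TPM, Fut2, from 59.8 to 23.8 TPM, Sparc, from 7.46 to 18.4 TPM, and Mgst1, from 28.5 to 9.77 TPM.

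6419c5 was the line most like 6499c4 by several descriptions. Over the 14268 genes the correlation of log2(TPM + 1) between 6499c4 WT and KO was 0.984, and with the 6419c5 libraries it was 0.921 to 0.934. With 6694c2 it was 0.908 to 0.922 and with 2838c3 0.912 to 0.919, so the ranges overlap slightly. These correlations are across genes, which are not independent. Of the 693 higher markers 6419c5 was the next line for 381, 2838c3 for 193 and 6694c2 for 119. Of the 720 lower markers the next line was 6419c5 for 322, 6694c2 for 267 and 2838c3 for 131. 6419c5 also had the most higher markers of its own, 1288, so it could often be the next line whatever its likeness to 6499c4. Tested pairwise by limma, 1078 genes (7.56%) differed from 6419c5, 1155 (8.1%) from 2838c3 and 1400 (9.81%) from 6694c2. The direction differed between pairs: against 6419c5 255 genes were higher in 6499c4 and 823 lower, and against 6694c2 841 were higher and 559 lower. The comparisons share the 6499c4 libraries, and the high unnamed share of 6419c5 KO and 6694c2 KO bears on the pairs with those lines.

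Marker genes were unevenly placed along the genome. Of 13561 autosomal genes tested, 5.07% were higher markers and 5.29% lower markers. On chromosome 17 136 of 690 genes (19.7%) were higher markers and 2 were lower. On chromosome 11 the counts were 148 of 1154 (12.8%) and 22. Chromosome 16 showed the reverse, with 5 higher markers and 54 lower (12.7%) of 426. The medians moved as well: relative to all genes, the median difference of chromosome 17 was 0.30, of chromosome 11 0.25, of chromosome 10 0.18, of chromosome 16 -0.30, of chromosome 14 -0.19 and of chromosome 18 -0.18. The other autosomes lay between -0.15 and 0.11. Not all of these shifts were particular to 6499c4. Relative to the mean of the 8 libraries, chromosome 10 stood at 0.257 and 0.262 in 6419c5, above 0.203 and 0.0706 in 6499c4. Chromosome 14 stood at -0.257 and -0.241 in 6419c5, below -0.125 and -0.15 in 6499c4. Chromosome 18 stood at -0.0379 in 6499c4 WT and -0.224 in 6499c4 KO, next to -0.126 and -0.0898 in 6419c5. For chromosome 16 the median difference was -0.68 against 6419c5, -0.28 against 2838c3 and -0.04 against 6694c2, not relative to all genes. The median differences by genotype were close, 0.31 in WT and 0.32 in KO for chromosome 17 and -0.31 and -0.30 for chromosome 16. For chromosome 10 they were apart, 0.29 in WT and 0.09 in KO, and the value was 0.34 with line 6419c5 left out. RNA does not measure DNA copy number, and none was measured here, so the part of chromosome content in these values was not tested. Differences also ran with base composition: from the fifth of genes with the lowest GC content to the fifth with the highest, the median difference went from -0.18 to 0.11. With that trend taken off, an alternative chosen after seeing the data, chromosome 17 stood at 0.27, 11 at 0.22, 10 at 0.18 and 16 at -0.29.

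**Figure D4:**
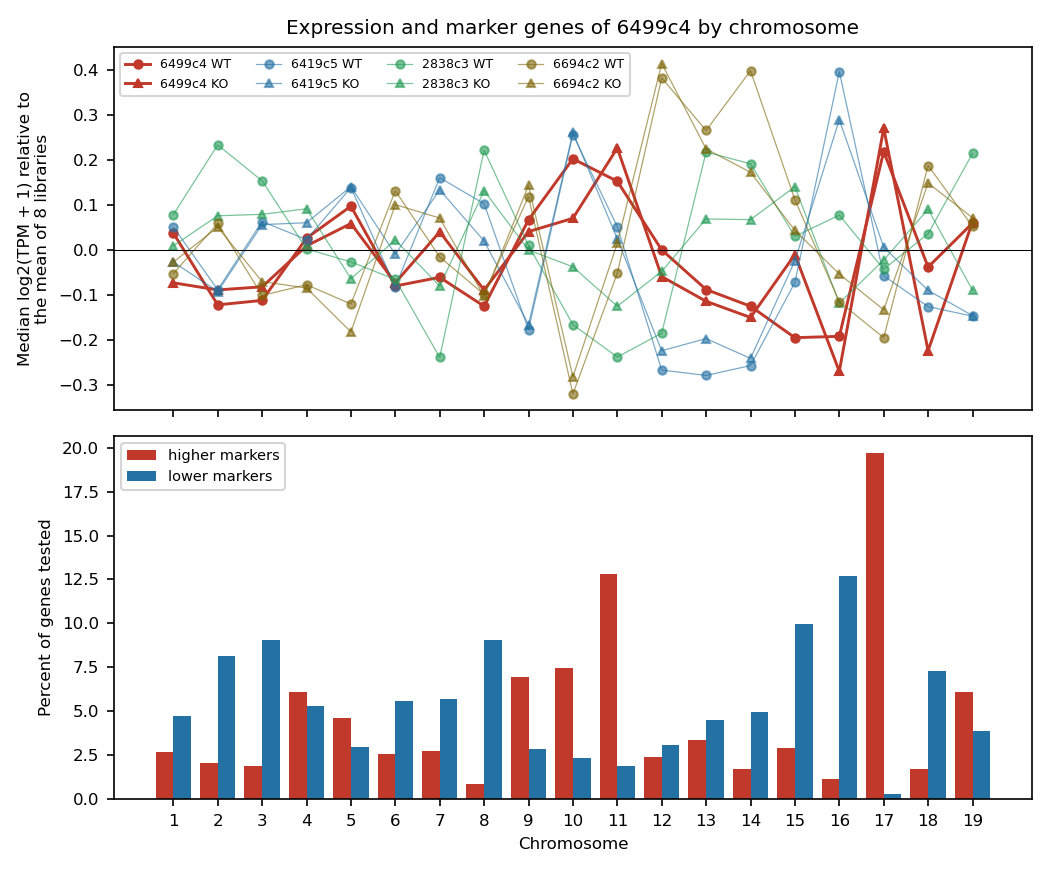
Upper panel, median log2(TPM + 1) of the tested genes on each autosome relative to the mean of the 8 libraries, with 1 line per library (circles WT, triangles KO, colours for cell lines). Lower panel, share of tested genes on each autosome that were higher or lower markers of 6499c4. Both 6499c4 libraries stand above the other 6 on chromosome 17, where 19.7% of genes were higher markers, and below them on chromosome 16, where 12.7% were lower markers.

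Within chromosomes the shift was not even. In windows of 50 neighbouring tested genes, positions 79362264 to 80235397 of chromosome 10 had a median difference of 0.58 and 21 higher markers, and 23887586 to 25114255 of chromosome 17 a median of 0.50 and 20 higher markers. At the end of chromosome 4, from 150981579 to 156332073, the median over 72 genes was -0.51, with 19 lower markers and 9 genes above 0. Stretches of at least 3 consecutive tested genes that were all markers in the same direction numbered 15 for higher markers, holding 53 genes, and 7 for lower markers, holding 21. The longest had 5 genes: Klhl11, Acly, Cnp, Dnajc7 and Nkiras2 on chromosome 11 (100334704-100518436), and Ranbp3, Vmac, Ndufa11, Nrtn and Dus3l on chromosome 17 (56980208-57077097). Cldn6 lay in a stretch of 4 on chromosome 17 (23887586-23901420) with Thoc6, Hcfc1r1 and Tnfrsf12a, and Axin1, the Wnt scaffold gene, in another (26332258-26426760) with Pgap6, Mrpl28 and Arhgdig. Axin1 stood at 68.7 and 71.1 TPM against 45.6 to 58.2 TPM elsewhere, a difference of 0.44 next to 0.27 for the median of chromosome 17. Stk11, the tumour suppressor kinase gene, lay in the stretch on chromosome 10 (79951597-79981652), at 113 and 106 TPM against 44.4 to 106 TPM. Cldn18, Twist1, Gas1, Mycl and Sox17 lie on chromosomes 9, 12, 13, 4 and 1.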

How the data were processed

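Gene values in the 8 libraries were TPM values, transcript abundances scaled to a common total, as deposited by the authors in 1 table for the series, with 1 column per line and genotype. The tools, per the submitters' processing notes, were DESeq2 2.11.40.8 and featureCounts 2.1.1 as well as STAR 2.7.11b and cutadapt 5.1, with the build mm39; their roles, the annotation and the use of strand are not given in the sources used here. Of 49315 identifiers 45505 were named from GENCODE on GRCm39, the same build. The table shows no count, so depth and counting error are unknown.

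The lines were grouped by label. Marker genes followed the rule given in the report. The test used R 4.3.3 and limma 3.58.1 with a mean-variance trend on log2(TPM + 1), a pseudocount of 1, genes with at least 1 TPM in at least 2 libraries, and terms for line and genotype, which leaves 3 residual degrees of freedom. It was tested on simulated data. A differing filter, at least 1 TPM in 4 libraries, would drop genes expressed by a single line. Figures used matplotlib 3.10.9.

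The line, the marker rule and the gene lists were chosen with earlier results of these data known. Named genes were the 25 higher and 15 lower markers with the widest gap, the 10 most abundant higher markers, the markers and up to 4 further called members of each list, members of stretches, and C1galt1c1. Ctnnb1, Cp, Trp53, Vim, Zeb1, Poc1b and further called members named to complete a count were chosen after their values were seen. Alternatives tried were other filters, scalings, variance settings, left-out libraries and lines, and single genotypes. Some genes are not reported here.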

Additional observations from a re-analysis of the deposited data

How the results depend on the processing

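Across other scalings, expression limits and variance settings the counts of markers and of calls stayed within 1.5 times the reported values, except that testing without an expression filter gave 325 higher and 255 lower calls. Marker counts rest on having 2 libraries and 3 lines to exceed: a gap of at least 1 left 47 higher and 49 lower genes, the WT libraries alone gave 1464 and 1936, the KO libraries alone 2015 and 1953, and leaving out a library gave 727 to 1163 higher and 785 to 1557 lower. Without 6694c2 there were 1304 lower markers, without 2838c3 1052 higher, and without 6419c5 1490 higher and 1359 lower. By construction fewer conditions pass more genes. Leaving out a library gave 48 to 824 higher and 38 to 850 lower limma calls, the fewest without a 6499c4 library, where the lone sample is assumed to vary like the others. Without 2838c3 819 genes were called lower, against 6694c2 alone 841 higher, and against 6419c5 alone 255 higher and 823 lower.

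Of 88 named genes that were called and are no markers, 75 lost the call without 6499c4 WT and 74 without 6499c4 KO, 24 without 6419c5 WT and 23 without 6419c5 KO, 20 without 6694c2 WT and 23 without 6694c2 KO, 42 without an expression filter, and at most 9 under a change of scaling, pseudocount or variance setting. Some called genes changed sign against a single line. B4galt4, Galnt18, Grem1, Hoxa10 and Hoxa11 did so against both 6694c2 and 2838c3, so that their calls came from 6419c5. The others did so against 1 line only, which stood level with 6499c4 or beyond it. Against 6694c2 alone the differences were 0.0574 for B4galt4, 0.0608 for Galnt18, 0.53 for Grem1, 0.26 for Hoxa10, 0.0912 for Hoxa11, 0.45 for Robo1, 0.19 for Tm4sf5 and -0.11 for Ugt1a7c. Against 2838c3 alone they were 0.24 for B4galt4, 0.18 for C2, 0.13 for Galnt18, 0.0769 for Grem1, 0.66 for H2-M3, 0.44 for Hoxa10, 0.0655 for Hoxa11, 0.00529 for Peg3 and 0.0039 for Tspan1. Against 6419c5 alone they were -0.73 for Car8, -0.22 for Cdkn2b, -0.73 for Cdx2, -0.0282 for Dhx58, 0.021 for Igfbp5, -0.50 for Ihh, -0.0557 for Il1rn, -0.71 for Nr0b2, -0.25 for Sema4f and -0.16 for Serpinb1a. With 6419c5 left out Grem1 stood at 0.31, and with 2838c3 left out Ugt1a7c at -0.000815.

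Only chromosomes 10, 11, 16 and 17 were followed through these alternatives, and their medians relative to all genes kept their sign throughout. Chromosome 17 gave 0.31 in WT and 0.32 in KO libraries, 0.25 without 6694c2, 0.34 without 2838c3, 0.34 without 6419c5 and 0.27 with the GC trend taken off. Chromosome 16 gave -0.31 in WT, -0.41 without 6694c2, -0.36 without 2838c3, -0.20 without 6419c5 and -0.29 with the GC trend taken off. Chromosome 11 gave 0.18 without 2838c3, 0.30 without 6419c5 and 0.22 with the GC trend taken off, and chromosome 10 0.34 without 6419c5. The causes of these movements were not tested. Reading the expression limit as 1 library of at least 10 TPM, chosen after seeing the data, gave 732 higher and 978 lower markers. No paired analysis was possible because each replicate number is 1 genotype of a line and the genotype is already a term of the fit.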

Other observations

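Lower markers of 6499c4 included several steps of prostaglandin handling, a group put together after their values were seen. Beside the cyclooxygenase genes Ptgs1 and Ptgs2 and the transporter gene Slco2a1, Ptgds, which encodes a prostaglandin D synthase, stood at 6.15 and 5.56 TPM in 6499c4 WT and KO against 15.2 to 50.8 TPM in the other 6 libraries. Ptges, which encodes the inducible prostaglandin E synthase, did not share this, at 41.1 and 74.2 TPM in 6499c4 against 2.51 to 94.7 TPM, and Hpgd, the gene of the degrading enzyme, stood at 2.16 and 0.33 TPM against 0.14 to 24 TPM.

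Neighbours of the leading markers did not always move with them, which was also noticed after the values were seen. Around Mycl on chromosome 4, Mfsd2a, Bmp8b, Hpcal4 and Nt5c1a were higher markers within 122840643-123110068, whereas Trit1 and Ppie, which lie among them, differed from the other lines by -0.11 (SE 0.20) and 0.29 (SE 0.14) and were no markers. On chromosome 9 the lower markers Slco2a1 and Trf lie on either side of Rab6b and Srprb, which were no markers, at differences of -0.72 (SE 0.22) and -0.60 (SE 0.28). On chromosome 6 the higher marker Atp6v0e2 (48514504-48522309) lies near the lower markers Tmem176a and Tmem176b.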
